A study of Mus musculus with 12 samples.

Results

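RNA levels were compared between heat-shocked cells of 2 mouse striatal lines, one homozygous for a huntingtin allele with a short polyglutamine tract (genotype STHdhQ7/Q7, Q7 cells here) and one homozygous for an expanded tract (STHdhQ111/Q111, Q111 cells). The comparison used 6 of the 12 arrays of the study, 3 of each line kept at 42 °C for 6 h, and covered the 18193 genes named by a probe set that names 1 gene. The other 6 arrays, 3 of each line left at the growth temperature of 33 °C, served as the reference for what the lines already differed in without heat. Both lines came from embryonic knock-in mice, were grown in serum-containing medium with G418 and were used up to passage 15. Each genotype is represented by 1 line, so a difference of genotype and any other difference between the lines cannot be told apart. The labels do not say that the 3 arrays of a group came from separate cultures, and the spread behind the p-values may therefore be technical. In these bulk samples, fewer cells expressing a gene and less RNA per cell cannot be told apart.

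Huntingtin is a large scaffold protein, and a lengthened glutamine stretch in it underlies Huntington's disease, which damages the striatum first. Heat shock unfolds proteins, and cells answer it through HSF1, a factor that switches on chaperones such as the HSP70 and small heat shock proteins. STHdh cells are immortalized with a temperature-sensitive form of the viral large T antigen, which is stable at the growth temperature and is lost at higher ones. Levels below are log2 values from Affymetrix arrays, a difference is Q111 minus Q7 on that scale with its standard error (SE), and mean levels carry the SD over n = 3 arrays. A level up to 5.14, the highest value of any probe set for bacterial RNA that was not added, is called background range. Where all 3 arrays of the lower line lay in that range, the fold is given as "at least", against that bound, and any difference printed beside it is the fitted one.

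Of the 6 heat-shock arrays, Q111 replicate 3 stood apart from its group. It correlated with the other Q111 heat-shock arrays at r = 0.965 and 0.972 across genes, and these correlated with each other at 0.991. Its median over genes was 6.43, against 6.74 on both others. The medians of the Q7 heat-shock arrays were 7.16, 6.80 and 7.08, so all 3 Q111 arrays lay below all 3 Q7 arrays. Q7 replicate 1 showed another pattern. In 18 genes that were in background range on all 3 untreated Q7 arrays and at 9 or more on all 3 untreated Q111 arrays, its level exceeded both other Q7 heat-shock arrays for 12 genes, with a median excess of 0.59. Q111 replicate 3 lay below both other arrays of its group for 14 of those 18 genes, with a median shortfall of -0.70. In the 16 genes with the opposite pattern at 33 °C, Q111 replicate 3 was the lowest of its group for 10 genes. The part of these array differences in the results was not tested, and values without both arrays are given beside the lists and named genes they change most.

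After heat shock 4018 genes, 22.1% of those tested, differed between the lines at a limma adjusted p under 0.05. Of these 1197 were higher in Q111 cells (6.58% of genes tested) and 2821 were lower (15.5%). A difference of at least 2-fold was reached by 591 of the higher and 1702 of the lower genes, and one of at least 8-fold by 74 and 108. At 33 °C the lines differed in 1962 genes (10.8%), split almost evenly into 929 higher (5.11%) and 1033 lower (5.68%). The excess of lower genes after heat shock changed in size with scaling and with Q111 replicate 3, without which 1393 were higher and 2322 lower. Without Q7 replicate 1 and Q111 replicate 3 the split was 1162 higher and 1638 lower of 2800. After a further quantile normalization it was 1628 and 2092. With each array centred on its median over genes, which raised the median difference of all genes to 0.37, it turned to 4566 higher and 1725 lower. Leaving out Q7 replicate 1 alone gave fewer called genes, 2594, with 753 higher and 1841 lower. Leaving out Q7 replicate 3 alone gave 2597, with 730 higher and 1867 lower. Higher genes were 29.0% and 28.1% of these calls, against 29.8% with all arrays. A set of 1884 genes, 46.9% of those called, was called in the same direction in all 10 further fits that left out each heat-shock array in turn, left out both named arrays, or used 1 of the 3 other scalings. This stable set held 596 higher and 1288 lower genes, and it included all 182 genes that differed by 8-fold or more.

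**Figure D1:**
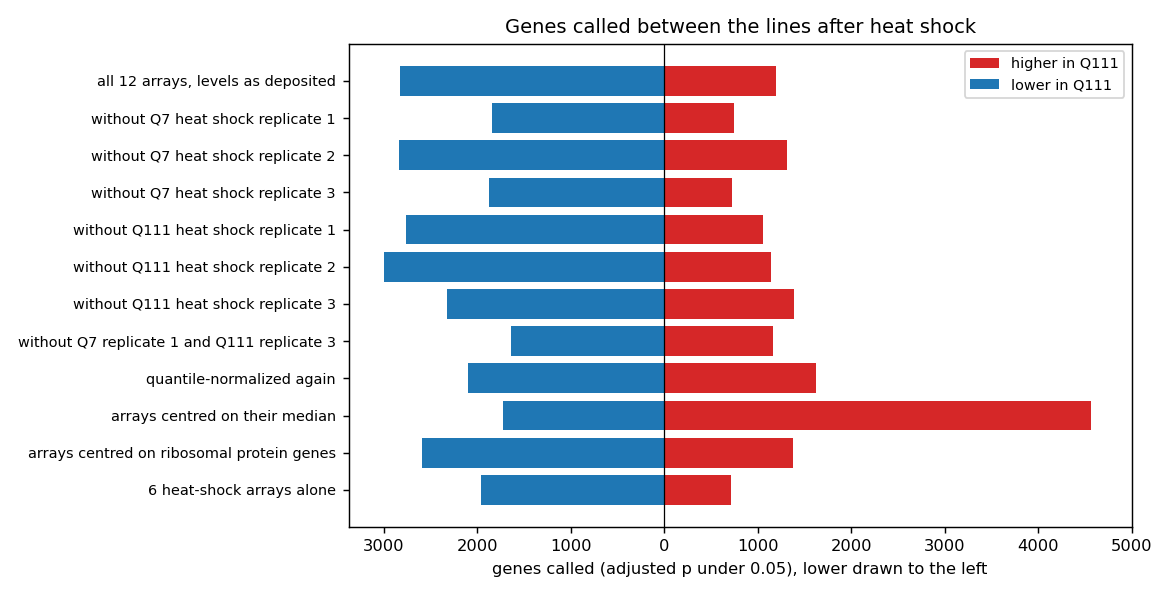
Number of genes called higher (red, to the right) and lower (blue, to the left) in Q111 than in Q7 cells after heat shock, with all arrays and with single arrays left out or other scalings. Lower calls outnumber higher ones in every bar except with arrays centred on their median, where 4566 genes are higher and 1725 lower.

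Interferon-stimulated genes, which encode antiviral effectors and are switched on through STAT and IRF factors, had the highest median difference of the 51 gene lists described after heat shock. Of 34 measured members 14 were higher in Q111 cells and 2 were lower, and their median difference was 0.68, against -0.0042 over all genes. The list of MHC class I and immunoproteasome genes was close behind at 0.67. Without both named arrays the interferon median was 0.70, below chemokines and cytokines at 0.84 and the MHC class I list at 0.80. The interferon list had been further apart at 33 °C, where 29 members were higher, none was lower and the median was 2.15. These factors act through short repeats of GAAA in promoters. The windows of 3 strongly different genes are shown for that reason (RefSeq, GRCm38.p6, from 250 bases before to 50 after the start, 5′ to 3′ on the gene's strand), with each match to GAAANNGAAA on either strand in capitals. Ifit1 lies at chr19:34640639-34640938 on the plus strand, Rsad2 at chr12:26456403-26456702 on the minus strand and Cxcl10 at chr5:92348840-92349139 on the minus strand.
Ifit1: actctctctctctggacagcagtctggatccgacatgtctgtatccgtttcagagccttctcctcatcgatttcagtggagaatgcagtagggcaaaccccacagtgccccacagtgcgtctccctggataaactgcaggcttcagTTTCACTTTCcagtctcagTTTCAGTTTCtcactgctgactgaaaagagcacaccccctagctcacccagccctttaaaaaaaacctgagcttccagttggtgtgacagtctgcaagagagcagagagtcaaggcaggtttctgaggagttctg
Rsad2: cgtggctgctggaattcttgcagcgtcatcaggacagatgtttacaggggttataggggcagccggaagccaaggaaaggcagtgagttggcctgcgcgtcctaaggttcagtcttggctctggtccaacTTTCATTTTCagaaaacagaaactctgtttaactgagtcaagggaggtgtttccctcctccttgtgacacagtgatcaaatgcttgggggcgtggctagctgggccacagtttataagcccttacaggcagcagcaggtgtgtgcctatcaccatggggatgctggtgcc
Cxcl10: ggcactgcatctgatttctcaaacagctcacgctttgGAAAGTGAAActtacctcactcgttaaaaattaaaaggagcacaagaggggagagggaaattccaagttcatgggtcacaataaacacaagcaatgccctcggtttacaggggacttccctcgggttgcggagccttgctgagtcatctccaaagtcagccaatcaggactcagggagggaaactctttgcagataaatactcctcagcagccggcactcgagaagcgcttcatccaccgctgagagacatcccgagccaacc

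The Ifit1 window held 2 matches, at positions -104 and -85 counted from the gene's start. The single match lay at -120 in Rsad2 and at -213 in Cxcl10. Of the 24 interferon-stimulated genes with a window 15 held a match, 8 of 11 among those higher in Q111 cells after heat shock and 7 of 13 among the others. A match was present in 3.44% of all 32851 windows and in 3.63% of the windows of genes tested. A match describes the sequence and is not a binding site.

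Ifit1, whose protein binds viral RNA, was at 4.78, 4.79 and 4.42 on the Q7 arrays and at 9.22, 9.88 and 9.05 on the Q111 arrays after heat shock. The Q7 arrays were all in background range and no array overlapped with the other line. It was at least 18.8-fold higher in Q111 cells (difference 4.72, SE 0.23, adjusted p = 2.85e-07). Rsad2, which encodes the antiviral enzyme viperin, was at 5.50, 5.46 and 5.13 in Q7 cells and at 9.36, 9.40 and 9.21 in Q111 cells (difference 3.97, SE 0.16, adjusted p = 6.95e-08). Usp18, a protease that removes ISG15 from proteins, was at 4.62, 3.16 and 3.16 against 8.37, 9.28 and 7.72, at least 9.92-fold higher (adjusted p = 4.03e-05). Q7 replicate 1 and Q111 replicate 3 were the arrays nearest to the other line for Usp18. Oas1a, an enzyme that makes the messenger activating RNase L, followed at 3.74 (SE 0.40, adjusted p = 7.07e-05).

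For Ifit1 and Rsad2 the line difference was smaller after heat shock than at 33 °C. At 33 °C all Q7 arrays of both genes were in background range, so the differences there and the interactions are fitted values against that range. The differences were 7.27 for Ifit1 and 5.89 for Rsad2, and the interaction, the difference after heat shock minus that at 33 °C, was -2.56 (SE 0.33, adjusted p = 0.00269) and -1.93 (SE 0.23, adjusted p = 0.00209). The interaction was called for 16 of the 34 list members, all with a value below 0, against 5.72% of all genes tested in either direction. Another 14 members were higher in Q111 cells at 33 °C and not called after heat shock, which does not show that they were equal. The 2 lower members were Irgm1, a GTPase of immunity to intracellular pathogens, and Ifit2. Irgm1 differed by 1.14 at 33 °C (adjusted p = 0.00261) and by -1.20 after heat shock (adjusted p = 0.00136). Ifit2, a relative of Ifit1, had a difference of -0.77 (adjusted p = 0.0118), which was not called without both named arrays (adjusted p = 0.116).

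**Figure D2:**
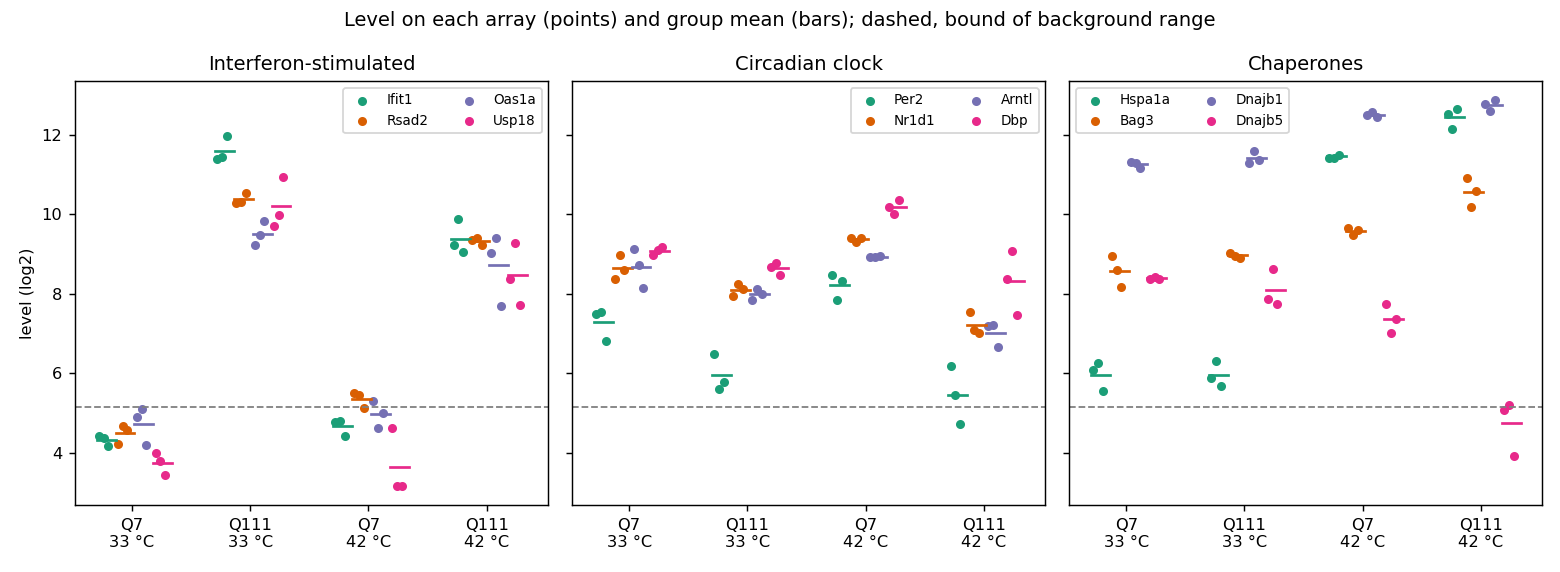
Log2 level on each of the 12 arrays (points) and the mean of each group of 3 arrays (bars) for 4 interferon-stimulated genes, 4 clock genes and 4 chaperone genes; the dashed line is the bound of background range at 5.14. The interferon-stimulated genes separate the lines at both temperatures, and the clock genes are lowest in heat-shocked Q111 cells. Dnajb1 is 0.24 higher in heat-shocked Q111 than in heat-shocked Q7 cells, a difference that was not called.

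Of 20 chemokines and cytokines, secreted signals that recruit and activate immune cells, 9 were higher in Q111 cells and 3 lower, and 9 were higher and 1 lower without both named arrays. Ccl5, a T cell attractant, was at 7.0, 3.96 and 4.81 in Q7 cells and at 11.64, 11.63 and 11.33 in Q111 cells (difference 6.28, SE 0.56, adjusted p = 2e-05). Q7 replicate 1 lay well above the other Q7 arrays for this gene, and the lines did not overlap. Without both named arrays the difference was 7.26. Cxcl10, induced by interferon, was at 7.09, 5.28 and 6.37 against 11.40, 11.33 and 11.13 (difference 5.04, adjusted p = 3.09e-06). Cxcl1, which attracts neutrophils, was 1.71 higher (adjusted p = 1.41e-05), while the related Cxcl5 was called lower (adjusted p = 2.6e-05) with all Q111 arrays in background range and Q7 cells at 5.16 ± 0.31, which leaves a fold of at least 1.01. Ccl2, which attracts monocytes, differed by 1.04 after heat shock (adjusted p = 0.000862) and by -0.08 at 33 °C (adjusted p = 0.913), with an interaction of 1.12 (adjusted p = 0.0179). MHC class I genes, which present peptides to T cells, had 4 of 11 members higher and none lower. Among them H2-D1 was at 11.38 ± 0.10 in Q111 and 10.36 ± 0.16 in Q7 cells (difference 1.02, SE 0.19, adjusted p = 0.00306).

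Several transcription factors of neural progenitors were lower in Q111 cells. Among 18 measured progenitor and glial fate genes 8 were lower in Q111 cells and 2 were higher, and all 10 belonged to the stable set. The summed level of these 18 genes was 14.38 to 14.43 on the Q7 and 13.69 to 13.87 on the Q111 arrays. Sox2, which maintains neural stem cells, was at 10.97, 11 and 10.90 in Q7 cells and at 4.27, 4.66 and 2.96 in Q111 cells, at least 56.1-fold lower there (difference -6.99, SE 0.36, adjusted p = 3.56e-07). All Q111 arrays were in background range, and Q111 replicate 3 was the lowest. Pax6, a factor of cortical and eye development, was at 10.37, 10.14 and 10.13 against 4.91, 5.29 and 5.32 (difference -5.04, SE 0.19, adjusted p = 4.72e-08). Sox11, a factor of immature neurons, was lower (difference -4.15, adjusted p = 2.15e-06), and its other 5 probe sets were called lower too. Nes, the intermediate filament nestin, was lower (difference -2.20, adjusted p = 5.83e-05). The 2 higher members were Slc1a3, a glial glutamate transporter (2.68, adjusted p = 0.00155), and Sox9, a factor of glia and cartilage.

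Besides Sox2, the 10 genes with the lowest differences included 4 developmental transcription factors. Pou3f3, a neural POU factor, was at least 37.5-fold lower in Q111 cells (difference -6.40, SE 0.19). Sall1, a zinc finger factor, differed by -6.13 (SE 0.32) and Nr2f1, a nuclear receptor of cortical patterning, by -5.92 (SE 0.28). Lhx2, a LIM homeobox factor of the forebrain, was at 9.71, 9.68 and 9.63 against 4.51, 4.39 and 3.63, at least 23.1-fold lower in Q111 cells (difference -5.50, SE 0.22, adjusted p = 6.95e-08). The others of these 10 genes were Bex1, a small neuronal protein, with Tnnt2, cardiac troponin T, then Nrarp, an inhibitor of Notch signalling, Foxl2os, a noncoding RNA, and Artn, a ligand of the RET pathway. Bex1 had the lowest difference of all. It was at 10.61, 10.39 and 10.32 in Q7 cells and at 2.59, 2.88 and 2.45 in Q111 cells, at least 39.3-fold lower (difference -7.80, SE 0.19, adjusted p = 1.4e-09). All 10 were called in the same direction at 33 °C.

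Among forebrain patterning factors 4 of 19 were lower and 1 was higher in Q111 cells. The share called, 26.3%, was near the 22.1% over all genes, and the median difference was 0.15. The higher one, Zic1, a zinc finger factor of the dorsal neural tube, was at 6.06, 3.94 and 4.10 in Q7 cells and at 10.88, 10.66 and 10.81 in Q111 cells (difference 6.08, SE 0.43, adjusted p = 4.28e-06). Lhx2, Otx1 and Meis2 were the 3 lower members with the largest differences, and Emx2, another homeobox factor, was the fourth at -2.01. Of 15 neuronal genes 1 was higher and 2 lower, with a median difference of 0.27. Stmn2, a regulator of microtubules in growing axons, was at 10.91 ± 0.16 in Q7 and 6.05 ± 0.95 in Q111 cells (difference -4.86, adjusted p = 9.21e-06). Map2, a microtubule protein of dendrites, differed by -1.35, and Nefl, a neurofilament subunit, was called higher (adjusted p = 0.0125) with both lines in background range. Of 16 markers of striatal projection neurons 2 were higher and 1 lower (18.8% called), and 9 were above background range in at least 1 line. Drd1, a dopamine receptor, was at 5.35 ± 0.80 in Q7 and 6.93 ± 0.50 in Q111 cells (adjusted p = 0.024), and lost its call without both named arrays (adjusted p = 0.132). Bcl11b, a factor of these neurons, was 0.81 higher in Q111 cells (adjusted p = 0.00777), at 6.17 ± 0.25 against 5.36 ± 0.23 in Q7 cells. It was near background range in Q7 cells, with 1 array in that range, and was not called with the mean of its probe sets. Tac1, a neuropeptide gene, was at least 3.0-fold lower in Q111 cells. Other defining markers were at or near background range. Drd2, the other main dopamine receptor of the striatum, was at 2.98 ± 0.10 and 2.95 ± 0.12, and Ppp1r1b, which encodes DARPP-32, at 4.75 ± 0.41 and 5.01 ± 0.03 in Q7 and Q111 cells.

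The 10 genes with the highest differences were at or near background range on most Q7 arrays. Dnajc15, a mitochondrial J-domain cochaperone, was at 6.56, 4.58 and 4.73 in Q7 cells and at 11.81, 11.68 and 11.45 in Q111 cells (difference 6.35, SE 0.43, adjusted p = 2.8e-06). Thbd, the anticoagulant receptor thrombomodulin, was at 7.29, 4.45 and 4.72 against 11.79, 11.69 and 11.86 (difference 6.29, SE 0.57, adjusted p = 2.35e-05). Q7 replicate 1 was above both other Q7 arrays for all 10 genes, by 1.26 to 2.70 over their mean. No Q7 array reached a Q111 array, which was a condition of the choice of these genes. Besides Ccl5, Zic1 and Mfap5 the others were Emb, a cell adhesion protein, Cyp1b1, a cytochrome P450 of steroids and aryl hydrocarbons, Aspn, the matrix proteoglycan asporin, Mme, the peptidase neprilysin, and Bhlhb9. Their fitted differences were 5.61 to 5.82, the lowest of them for Bhlhb9, which was in background range on all Q7 arrays and is bounded at 19.3-fold or more. All 10 were also called higher at 33 °C.

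**Figure D3:**
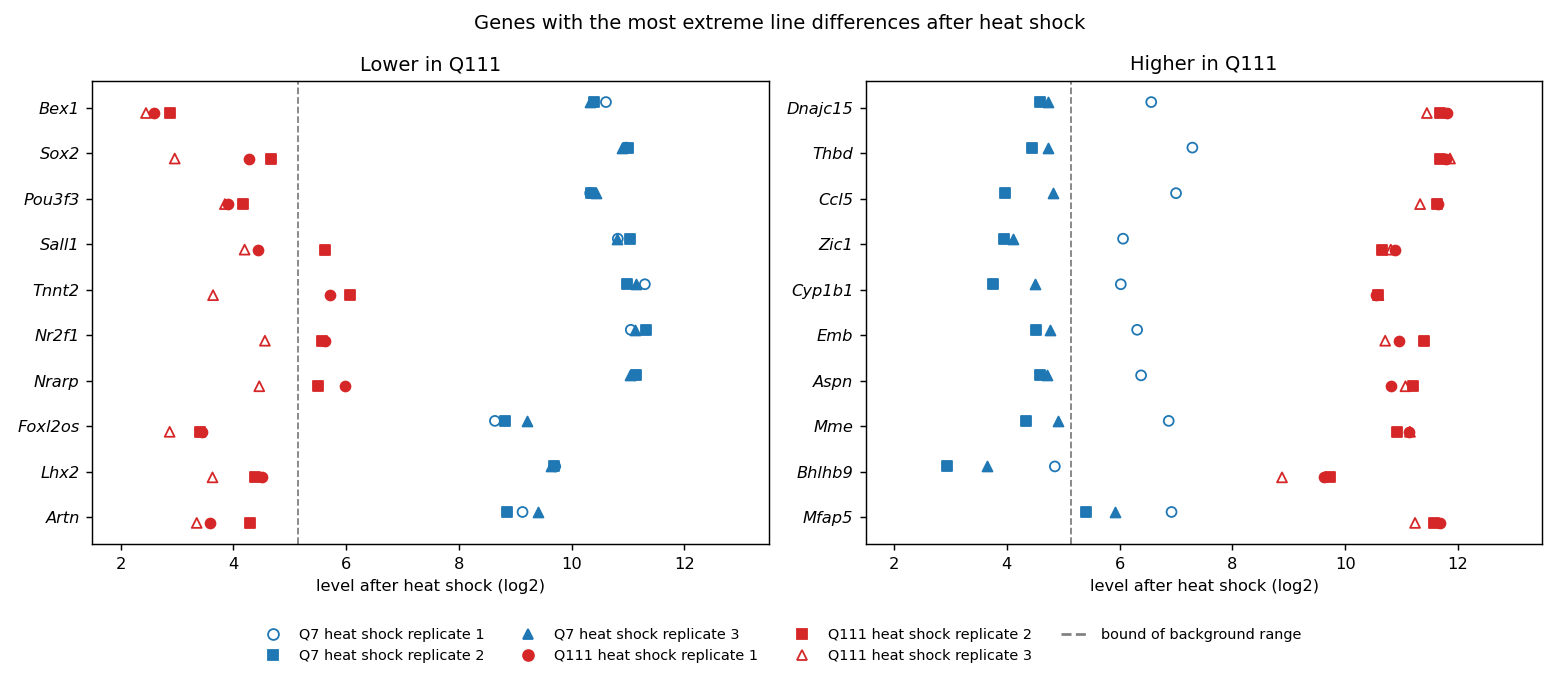
Log2 level on each heat-shock array for the 10 genes with the lowest (left) and the 10 with the highest (right) difference between Q111 (red) and Q7 (blue) cells; open symbols are Q7 replicate 1 and Q111 replicate 3, and the dashed line is the bound of background range at 5.14. Only genes without overlap between the lines were eligible. Q7 replicate 1 is the highest Q7 array for all 10 genes on the right, and Q111 replicate 3 is the lowest Q111 array for all 10 on the left.

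Matrix genes that differed were more often called higher than lower in Q111 cells among glycoproteins, and were split among collagens and proteases. Of 34 matrix glycoproteins and proteoglycans, which form and organize the space around cells, 16 were higher and 2 lower, with a median difference of 0.52. Without both named arrays 15 were higher and none was lower. Mfap5, a component of microfibrils, was at 6.92, 5.40 and 5.92 in Q7 cells and at 11.68, 11.57 and 11.24 in Q111 cells (difference 5.41, SE 0.31, adjusted p = 8.17e-07). Bgn, the proteoglycan biglycan, was 4.27 higher (SE 0.34, adjusted p = 8.37e-06). Fbln1, fibulin 1, was 3.45 higher (adjusted p = 6.7e-06). The 2 lower members were Lama5, a laminin chain, and Vcan, the proteoglycan versican, at -1.25 and -1.18, and neither was called without both named arrays (adjusted p = 0.0925 and 0.0907). Of 20 collagens 5 were higher and 3 lower. Col6a3 and Col6a2, chains of microfibrillar collagen VI, were higher by 2.48 and 2.06, and Col18a1, a basement membrane collagen, differed by -2.94. Of 17 matrix proteases and their inhibitors 3 were higher and 2 lower, 29.4% called against 22.1% over all genes. Their median difference was -0.10.

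The line difference widened with heat for Dcn and narrowed for Fbn2. Dcn, the proteoglycan decorin, was at 6.80, 7.04 and 6.79 in heat-shocked Q7 cells and at 9.84, 10.16 and 9.94 in heat-shocked Q111 cells. Its means at 33 °C were closer, 8.13 ± 0.21 and 8.87 ± 0.51. The difference was 3.10 after heat shock and 0.75 at 33 °C, with an interaction of 2.35 (SE 0.32, adjusted p = 0.00357). Its second probe set gave 1.3 after heat shock and was not called (adjusted p = 0.214 over all probe sets). Fbn2, the microfibril protein fibrillin 2, went the other way, from a difference of 6.27 at 33 °C to 2.41 after heat shock (interaction -3.86, SE 0.51, adjusted p = 0.00316). Its Q111 level was 7.77 ± 0.46 after heat shock against 11.27 ± 0.08 at 33 °C. Of 28 genes of growth factors, their receptors and binding proteins 5 were higher and 6 lower, with a median difference of -0.03. Fgf7, a growth factor for epithelium, was 3.52 higher in Q111 cells (adjusted p = 2.36e-06) with an interaction of 1.76 (adjusted p = 0.0139). Igfbp3 and Igfbp6, which bind insulin-like growth factors, were higher by 3.02 and 2.90. Igf1, insulin-like growth factor 1, and Gdnf, a survival factor of neurons, were among the lower members at -1.80 and -1.34.

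Of 16 clock genes, which form the transcription loop that times daily rhythms, 7 were lower in heat-shocked Q111 cells and none was higher. Their differences ran from -2.75 to 0.47, with a median difference of -0.70. The same number, 7 lower and none higher, was found without both named arrays. With median-centred arrays 5 were lower and 1 was higher, with a median of -0.32. Nr1d1, the repressor REV-ERBα, was at 9.39, 9.31 and 9.41 in Q7 cells and at 7.54, 7.09 and 7.01 in Q111 cells (difference -2.16, SE 0.19, adjusted p = 1.69e-05). Arntl, the activator BMAL1, was at 8.91, 8.92 and 8.94 against 7.19, 7.22 and 6.65 (difference -1.90, SE 0.23, adjusted p = 0.000168). The 3 arrays of each line lay close together and far from the other line. Per2, a repressor of the loop, differed by -2.75 (SE 0.36, adjusted p = 0.000301), though its second probe set, just above background range on average, gave -0.08. Dbp, an output factor of the clock, differed by -1.87 (SE 0.31, adjusted p = 0.00126). At 33 °C 2 of the 16 were lower, and the interaction was called for 2, among them Nr1d1 at -1.62 (SE 0.26, adjusted p = 0.00767).

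Of 41 measured genes in the list of chaperones, cochaperones and other genes driven by HSF1, 3 were higher in Q111 cells and 6 lower after heat shock. The share called was 22.0% against 22.1% over all genes, and the median difference was 0.05. With median-centred arrays 12 were higher and 4 lower, and the list median of 0.42 stood beside 0.37 over all genes. Without both named arrays 1 was higher and 4 lower. Hspb1, the small heat shock protein HSP27, was at 13.76, 13.72 and 13.70 in Q7 cells and at 13.72, 13.65 and 13.54 in Q111 cells (difference -0.09, SE 0.15, adjusted p = 0.716). Dnajb1, a J-domain partner of HSP70, was at 12.49, 12.56 and 12.44 against 12.76, 12.60 and 12.86 (difference 0.24, SE 0.13, adjusted p = 0.202). Hsph1, Hspa8 and Hsp90aa1, which encode HSP110, the constitutive HSC70 and HSP90α, had differences of 0.04, 0.06 and 0.14, none of them called. A p that misses the threshold does not show that these genes were at equal levels.

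Hspa1a, an inducible HSP70 gene, was at 11.42, 11.42 and 11.49 in Q7 cells and at 12.51, 12.14 and 12.65 in Q111 cells, 1.98-fold higher (difference 0.99, SE 0.22, adjusted p = 0.00733). At 33 °C it was at 5.96 ± 0.37 and 5.95 ± 0.33. Without both named arrays the difference was 0.87 and no longer called (adjusted p = 0.0563). Hspa1a and Hspa1b are near-identical copies, so their separate values are uncertain. Hspa1b differed by 0.24 on its brightest probe set and was not called (adjusted p = 0.206). Its other 2 probe sets, at means of 10.9 and 10.79, were called higher in Q111 cells. They gave 0.68 and 0.67 (adjusted p = 0.0201 and 0.0302 over all probe sets). Bag3, a cochaperone that directs clients to autophagy, was at 9.66, 9.47 and 9.60 against 10.91, 10.19 and 10.57 (difference 0.98, SE 0.21, adjusted p = 0.00682), and remained called in all alternatives run. The third higher member was Dnaja4, a J-domain cochaperone, at 0.58 (adjusted p = 0.0296), which lost its call without both named arrays (adjusted p = 0.0953).

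Among the lower chaperones, Dnajb2, a neuronal J-domain protein that counters polyglutamine aggregation, was at 11.03, 10.97 and 11.03 in Q7 cells and at 9.69, 9.72 and 8.98 in Q111 cells (difference -1.55, SE 0.19, adjusted p = 0.00018). At 33 °C the lines were at 9.63 ± 0.12 and 9.46 ± 0.14, and the interaction was -1.38 (SE 0.27, adjusted p = 0.0157). Hspb6, a small heat shock protein of muscle, differed by -1.96 (adjusted p = 0.000983). Dnajb5, another J-domain protein, was at 7.74, 7.01 and 7.36 against 5.08, 5.2 and 3.92 (difference -2.63, SE 0.33, adjusted p = 0.000244), but its second probe set at a mean of 7.02 gave -0.30 and was not called. Cryab, the lens crystallin and chaperone αB-crystallin, differed by -0.76 (adjusted p = 0.00215), and by -0.38 with median-centred arrays, where it was not called (adjusted p = 0.126).

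With levels as deposited, genes of p53 signalling and of the BCL2 family of cell death regulators were lower in Q111 cells where they were called. Of 21 p53 targets 11 were lower and none was higher, with a median difference of -0.75. All 21 were above background range in at least 1 line. Lower calls made up 15.5% of all genes, and 2354 of the 9097 brighter genes, whose median difference was -0.20. Only 4 of the p53 targets were lower without both named arrays and 3 with median-centred arrays, and 1 belonged to the stable set. That member was Zmat3, an RNA-binding factor induced by p53, at 11.66, 11.67 and 11.51 in Q7 cells and 9.74, 9.42 and 9.88 in Q111 cells (difference -1.93, SE 0.34, adjusted p = 0.00206). Of 14 BCL2 family genes 7 were lower and none was higher, and 3 were lower without both named arrays. Bcl2l1, which encodes the survival protein BCL-XL, differed by -1.33 (SE 0.22, adjusted p = 0.00135). Bcl2l11, the death-promoting BIM, was at 11.41 ± 0.09 against 10.27 ± 0.36 (difference -1.13, SE 0.23, adjusted p = 0.00443). Survival and death-promoting members were thus both among the lower genes.

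In the endoplasmic reticulum list, proteins that fold or discard secreted proteins, 7 of 25 members were lower and none was higher. That was 28.0% called, against 22.1% over all genes. The median difference was 0.01, and 4 were lower without both named arrays. The lower members included Xbp1, Ern1 and Atf6, which signal protein folding stress, though Ern1 was not called with the mean of its probe sets, nor Atf6 without both named arrays (adjusted p = 0.163). Xbp1, a transcription factor of the unfolded protein response, was at 9.89 ± 0.18 in Q7 and 8.34 ± 0.60 in Q111 cells (difference -1.55, SE 0.28, adjusted p = 0.0025), and its other 3 probe sets were called lower too. Syvn1, a ubiquitin ligase of the degradation pathway, differed by -1.01 after heat shock and 0.44 at 33 °C (interaction -1.45, SE 0.29, adjusted p = 0.0183). With median-centred arrays the list had 6 higher and 4 lower members.

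Htt itself was at 7.95, 7.59 and 8.05 in heat-shocked Q7 cells and at 6.72, 6.6 and 6.82 in heat-shocked Q111 cells (difference -1.15, SE 0.17, adjusted p = 0.000546). Its value rests on the brightest of 4 probe sets, and with their mean it was not called; the array does not measure the repeat. Of 16 genes for huntingtin and its interactors 6 were lower and none was higher, and 4 were lower without both named arrays. Sp1, a general transcription factor, was at 10.19 ± 0.13 against 8.72 ± 0.42 (difference -1.47, SE 0.20, adjusted p = 0.000375), and it differed by 0.01 at 33 °C (interaction -1.48, SE 0.28, adjusted p = 0.0145). These values are from its brightest probe set. The second, at a mean of 9.65, gave -0.65 after heat shock, not called (adjusted p = 0.111 over all probe sets), and -0.39 at 33 °C. The third, at a mean of 6.54, gave -0.71 (adjusted p = 0.0341) and 0.06. Hap1, a transport adaptor that binds huntingtin, was in background range on all 3 Q111 arrays and at 5.6 ± 0.12 in Q7 cells. Bdnf, a survival factor of striatal neurons, differed by 0.20 (adjusted p = 0.624) and Ppargc1a, a coactivator of mitochondrial genes, by -0.10 (adjusted p = 0.889).

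Of 10 genes that ERK signalling induces to limit itself 5 were lower and 1 higher, and 3 were lower and none higher without both named arrays. Spred2, an inhibitor of RAF activation, was at 8.53, 8.29 and 8.49 against 6.29, 5.36 and 4.95 (difference -2.91, SE 0.28, adjusted p = 3.07e-05). Dusp6, an ERK phosphatase, changed sign, from -1.54 at 33 °C (adjusted p = 2.39e-05) to 0.68 after heat shock (adjusted p = 0.00599), with an interaction of 2.22 (SE 0.20, adjusted p = 0.00137). Its call after heat shock was lost without both named arrays, where the difference was 0.61 (adjusted p = 0.0543). Of 29 TGF-β and BMP genes 8 were lower and 3 higher. The split was 4 lower and 3 higher without both named arrays, and 6 lower and 7 higher with median-centred arrays. Smad3, which carries TGF-β signals to the nucleus, was at 10.89, 10.89 and 10.83 against 9.34, 9.01 and 9.15 (difference -1.70, SE 0.15, adjusted p = 1.99e-05) and differed by 0.29 at 33 °C (interaction -1.99, SE 0.21, adjusted p = 0.00184). Tgfbi, a matrix protein induced by TGF-β, was 3.31 higher. Of 26 immediate early genes, the first to respond to a stimulus, 6 were higher and 2 lower, and 4 were higher and 1 lower without both named arrays. Maff, a small MAF factor, was at 9.77, 9.52 and 9.88 against 11.26, 11.37 and 10.91 (difference 1.46, SE 0.20, adjusted p = 0.000424), with an interaction of 1.71 (adjusted p = 0.00849).

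Of 21 solute and ion transporters 9 were lower in Q111 cells and 1 was higher, and 8 were lower and none higher without both named arrays. Slc2a3, a neuronal glucose transporter, was at 9.25, 8.83 and 8.92 against 5.35, 5.38 and 5.02 (difference -3.75, SE 0.29, adjusted p = 7.03e-06). Slc38a1, a glutamine transporter, differed by -3.25 (adjusted p = 1.01e-05), and by -1.44 at 33 °C (interaction -1.81, adjusted p = 0.0191). Among 18 ephrins and Eph receptors, contact signals that guide axons, 6 were lower and none was higher. That was 33.3% called, against 22.1% over all genes, where lower calls made up 15.5%. In this list 2 were lower without both named arrays, and 5 were lower and 2 higher with median-centred arrays. Of 25 measured Hox genes, which set position along the body axis, 4 were higher and 6 lower in Q111 cells after heat shock. In at least 1 line 17 of the 25 were above background range. At 33 °C the split was another, with 10 higher and 2 lower, and the interaction was called for 8. After heat shock the called members differed in cluster by direction, and whether the members not called follow the clusters was not tested. The 4 higher ones were Hoxa2, Hoxa3, Hoxa4 and Hoxa5, while 5 of the 6 lower ones, Hoxc4, Hoxc5, Hoxc8, Hoxc9 and Hoxc10, lie in the HoxC cluster and Hoxb5 in HoxB. Hoxc4 was at 8.91, 8.72 and 9.10 against 6.64, 6.30 and 5.40 (difference -2.79, SE 0.26, adjusted p = 2.97e-05), with an interaction of -2.36 (adjusted p = 0.00672). Hoxa3 differed by 1.95, while Hoxa2 was in background range on all heat-shock arrays and Hoxa4 on all Q7 ones. Hoxc5 lost its call without both named arrays (adjusted p = 0.0774).

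Most lists of housekeeping machinery had few or no called members. None of 37 respiratory chain subunits, 30 proteasome subunits, 25 ribosome biogenesis genes, 21 ATF4 targets and 8 TRiC chaperonin subunits was called, and 1 of 23 ribosomal protein genes was. Centring arrays on their median called 14 of the respiratory chain and 16 of the proteasome genes higher, with list medians of 0.43 and 0.48 against 0.37 over all genes under that scaling. Of 27 mitosis genes 3 were higher and 1 lower, and of 28 S phase genes 1 was higher and 3 lower, against none higher and 1 lower without both named arrays.

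**Figure D4:**
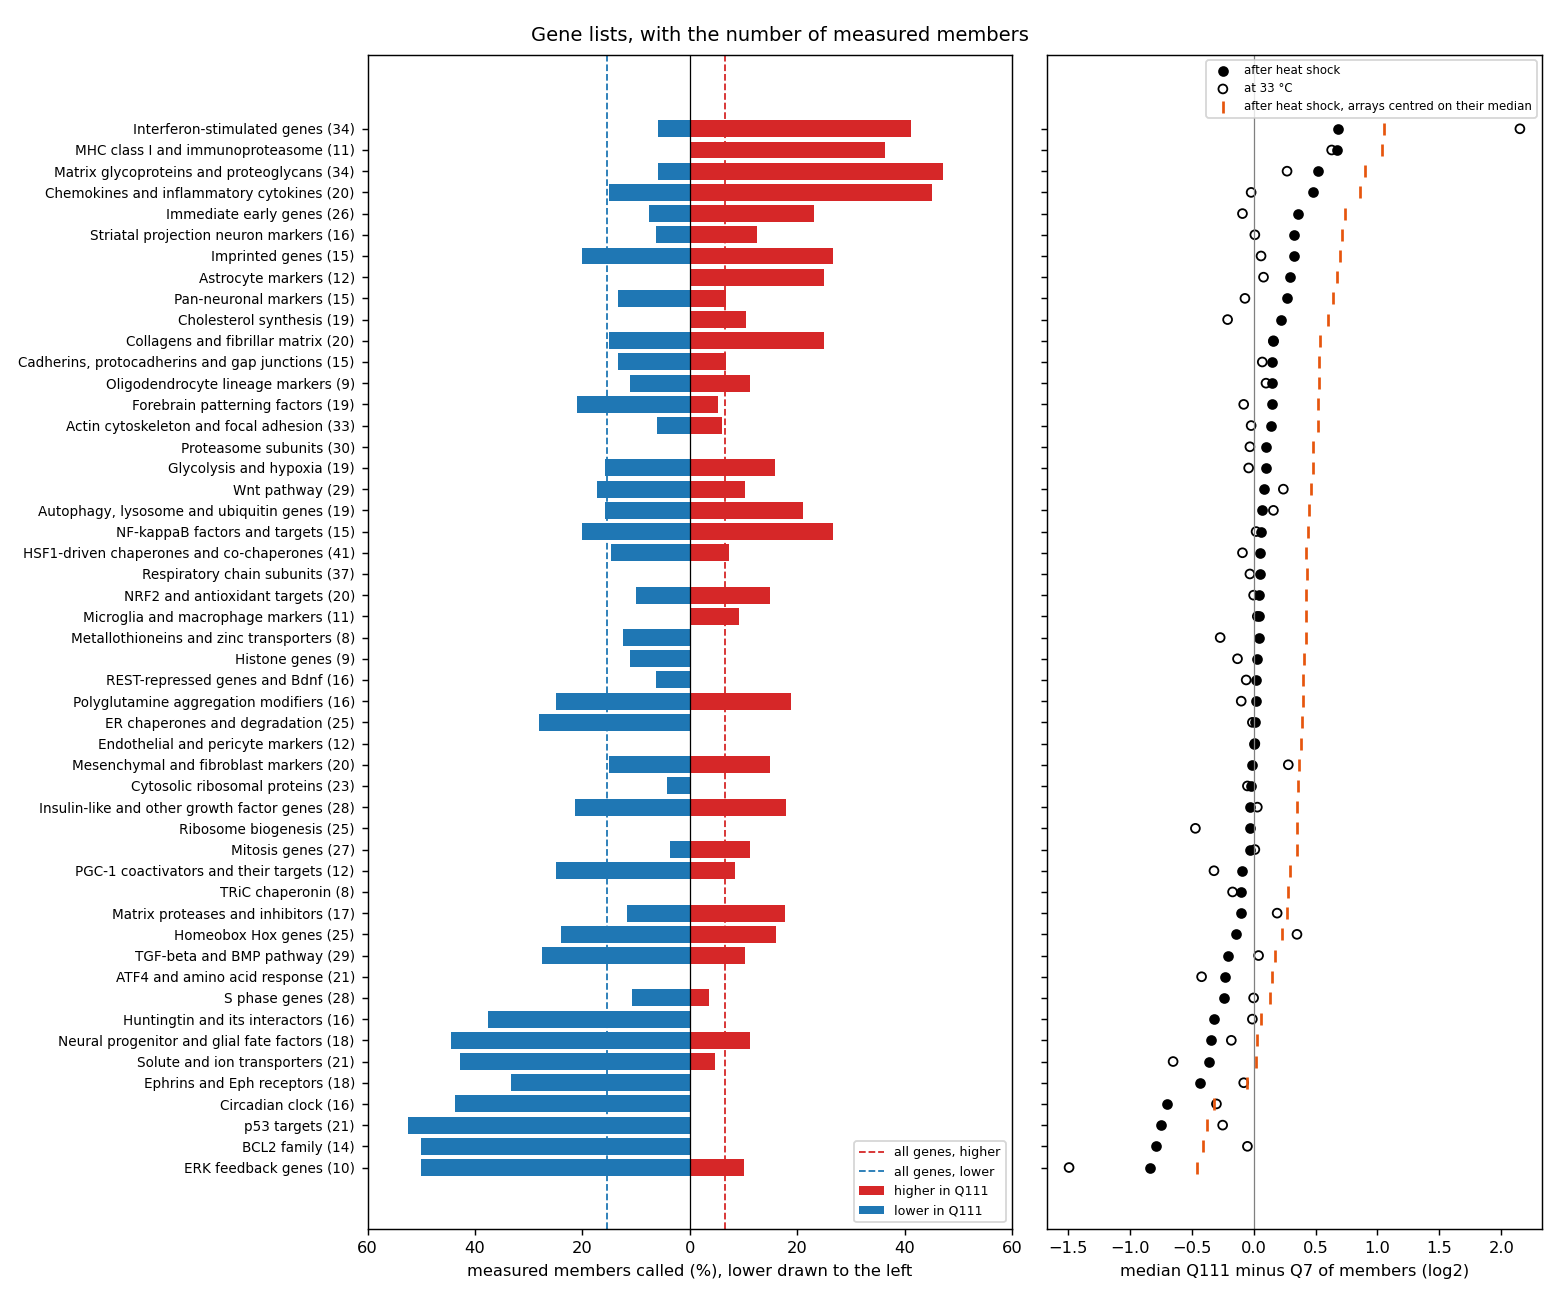
Left, percent of the measured members of each list called higher (red, to the right) or lower (blue, to the left) in Q111 cells after heat shock, with dashed lines at the shares over all genes, 6.58% and 15.5%; right, the median Q111 minus Q7 difference of each list after heat shock, at 33 °C and after heat shock with median-centred arrays. Interferon-stimulated genes stand at the top with a median of 0.68 after heat shock, beside 0.67 for MHC class I genes, and with 2.15 at 33 °C. Median centring shifts every list to the right.

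Against the lines at 33 °C, 1094 genes were called in the same direction at both temperatures, 471 higher and 623 lower in Q111 cells. They were 27.2% of the genes called after heat shock and 55.8% of those called at 33 °C. Of the 182 genes that differed by 8-fold or more after heat shock 171 were among them. Only 26 genes were called in opposite directions. The other 2898 genes were called after heat shock and not at 33 °C, which alone does not show that heat changed them. The interaction was called for 650 of these, 70 higher and 580 lower in Q111 cells, and 487 of the 650 belonged to the stable set. Over all genes the interaction was called for 221 genes with a value above 0 and 820 below, and this split turned to 772 and 471 with median-centred arrays. The count of interaction calls over all genes, 1041, fell to 379 without Q7 heat-shock replicate 3 and to 500 without Q7 heat-shock replicate 1. Leaving out single untreated arrays also lowered it by over 1.5 times, to 648, 532 and 683 without Q111 replicates 1, 2 and 3 and to 590 and 574 without Q7 replicates 2 and 3.

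**Figure D5:**
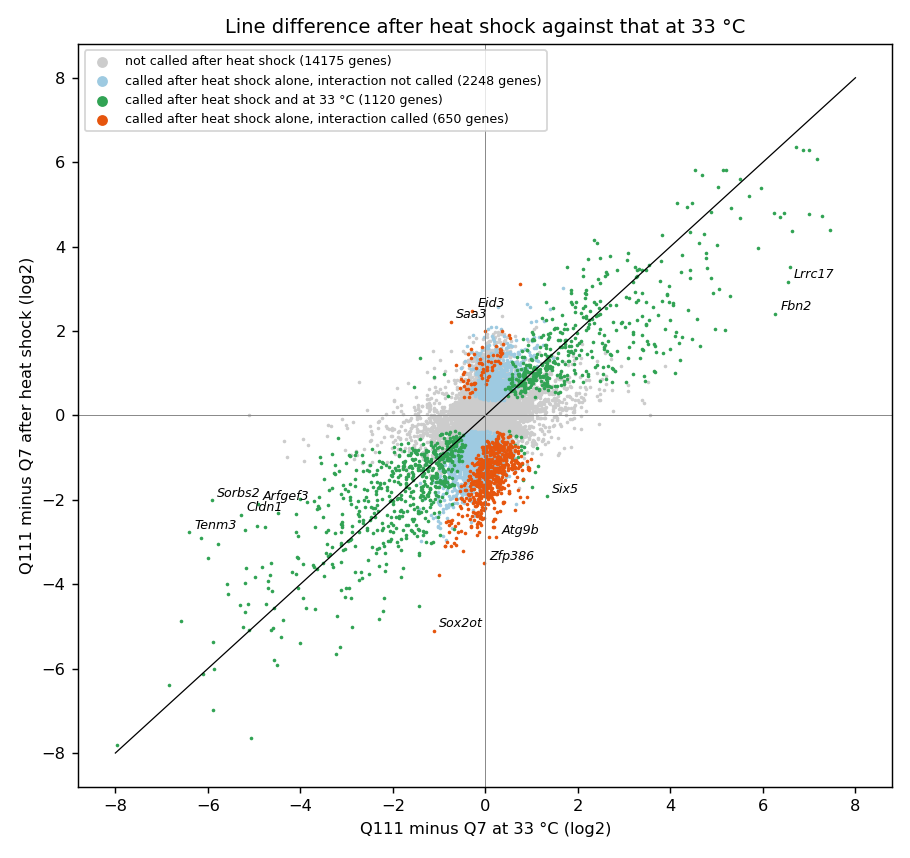
Difference between Q111 and Q7 cells after heat shock against that at 33 °C for each of 18193 genes (log2), coloured by the calls; the diagonal marks equal differences and the labels are the genes with the most extreme called interactions. Genes called at both temperatures (green) follow the diagonal, and the 650 genes with a call after heat shock alone and a called interaction (orange) lie mostly below 0.

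The genes with the lowest interactions were of several kinds. Sox2ot, a noncoding RNA that overlaps Sox2, was at 8.64, 8.04 and 8.55 in heat-shocked Q7 cells and in background range on every other array group, at 3.31 ± 0.71 in heat-shocked Q111 cells, 3.93 ± 0.65 in untreated Q7 cells and 2.81 ± 0.22 in untreated Q111 cells. With 3 of the 4 groups in background range it was at least 9.61-fold lower in heat-shocked Q111 cells, and the fitted interaction was -3.98 (SE 0.53, adjusted p = 0.00316). Zfp386, a zinc finger gene, was at 8.85, 8.40 and 8.84 in heat-shocked Q7 cells and 5.35, 6.02 and 4.18 in heat-shocked Q111 cells, while the lines had been at 8.58 ± 0.20 and 8.56 ± 0.26 at 33 °C (interaction -3.48, SE 0.52, adjusted p = 0.00527). Atg9b, an autophagy membrane protein, was at 8.05, 7.58 and 8.11 against 5.27, 5.06 and 4.76 (interaction -3.11, SE 0.33, adjusted p = 0.00184), though its second probe set, at a mean of 5.15, gave 0.02 after heat shock. Six5, a homeobox factor, changed sign, from 1.33 at 33 °C (adjusted p = 0.0123) to -1.91 after heat shock (adjusted p = 0.000898). Lrrc17, a secreted leucine-rich repeat protein, was in background range on all 6 Q7 arrays. Its Q111 level was 10.43 ± 0.43 at 33 °C and 7.51 ± 0.53 after heat shock, which leaves it at least 5.14-fold higher in Q111 cells after heat shock.

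Among the highest interactions, Eid3, which encodes a component of a chromosome maintenance complex, was at 8.58, 7.97 and 8.76 in heat-shocked Q7 cells and at 11.22, 10.87 and 10.66 in heat-shocked Q111 cells. At 33 °C it was at 5.23 ± 0.04 and 4.94 ± 0.44, at or near background range, where a line difference could hardly be seen. The line difference after heat shock was 2.48 (SE 0.25, adjusted p = 4.98e-05). The interaction of 2.77 (SE 0.36, adjusted p = 0.003) is a fitted value against levels near that range. Saa3, an acute phase protein, was at 6.08, 5.26 and 5.74 against 7.80, 8.98 and 6.95 (interaction 2.97, SE 0.72, adjusted p = 0.0365). Tenm3, a synaptic adhesion protein, had fitted differences of -6.41 at 33 °C and -2.77 after heat shock, where it was at least 1.85-fold lower in Q111 cells. Its Q7 level was 9.60 ± 0.40 at 33 °C and 6.03 ± 0.52 after heat shock, while the Q111 level was in background range at both temperatures, so both differences are against that range. Cldn1, a tight junction protein, and Arfgef3 were likewise in background range on all Q111 arrays. Their Q7 levels were 9.08 ± 0.13 and 7.61 ± 0.06 at 33 °C and 5.72 ± 0.70 and 5.31 ± 0.48 after heat shock, which leaves folds of at least 1.49 and 1.12 after heat shock. Sorbs2, an adaptor of the actin cytoskeleton, had differences of -5.91 at 33 °C, where Q111 cells were in background range, and -2.01 after heat shock, and Q111 replicate 3 at 7.02 stood apart from 5.03 and 4.88 on the other Q111 arrays. Its call after heat shock (adjusted p = 0.0199) was lost in 7 alternatives, among them those without Q7 replicate 1 or 3 and without Q111 replicate 1 or 2.

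Markers of other cell types were measured beside these results. Of 11 microglia and macrophage markers 1 was called higher in Q111 cells, Cx3cr1, a chemokine receptor, at 6.06 ± 0.21 against 5.10 ± 0.31. Their summed level was 8.28 to 8.51 on the Q7 and 8.77 to 9.37 on the Q111 arrays, and Aif1 and C1qa, defining genes of these cells, were in background range on all of them. All 3 Q111 sums lay above all 3 Q7 sums, but the sums are made largely of levels at or near background range. Only 5 of the 11 markers were above it in either line, the median difference was 0.04, and Cx3cr1 was in it on 2 Q7 arrays. None of 12 endothelial and pericyte markers was called, with summed levels of 9.52 to 9.66 and 9.12 to 9.79. Of 20 mesenchymal and fibroblast markers 3 were higher and 3 lower, with summed levels of 14.76 to 14.78 and 14.65 to 14.71. Of 12 astrocyte markers 3 were higher and none was lower, with summed levels of 13.15 to 13.22 and 13.41 to 13.49, and Gfap, the astrocyte filament, was in background range on all arrays. The part of other cell types in the matrix and interferon results was not tested. Outside the rule for naming genes, Irgm1, Ifit2, Ccl2, Nes, Slc1a3, Sox9, Emx2, Lama5, Vcan, Dnaja4, Dusp6, Atf6, Hoxa2, Hoxa3, Hoxa4, Hoxa5, Hoxb5, Hoxc5, Igf1, Gdnf and the markers Aif1, C1qa, Drd2, Gfap and Ppp1r1b were chosen after their values were seen.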

How the data were processed

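RNA was measured on 12 Affymetrix mouse arrays, 3 in each of 4 groups by the titles' line and treatment. The authors deposited log2 levels made with RMA, per the submitters' processing notes, which name no software version or chip definition. RMA equalizes array distributions, so a shift common to most genes cannot be measured. Of 45101 probe sets, 34945 named 1 gene, 932 several and 9160 none; the brightest set stood for each of 18193 genes. The number of arrays limits precision. Group means over all 12 arrays were fitted with limma 3.58.1 in R 4.3.3 (lmFit, eBayes; 8 residual degrees of freedom), p-values adjusted by Benjamini-Hochberg across the 18193 genes, and a call made at an adjusted p under 0.05. The steps were tested on simulated data. All adjusted p-values in the text are limma's; those for further probe sets are adjusted over all probe sets. Members and gene lists were chosen with earlier results of these data known. Named genes were the 10 highest and 10 lowest called, non-overlapping differences, the 6 highest and 6 lowest interactions, up to 4 called members of each list by size, and a set of huntingtin and chaperone genes. Alternatives covered scaling, probe set choice, filters, variance models, a replicate block and single arrays left out. Same-numbered heat-shock arrays did not deviate together (r = 0.345, -0.497 and -0.315), while untreated ones did (r = 0.516, 0.402 and 0.577).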

Additional observations from a re-analysis of the deposited data

Results flagged for a closer look

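For 48 of the 186 named genes the line difference after heat shock differed from that at 33 °C by limma's interaction test (adjusted p under 0.05). Each value here is the difference after heat shock minus that at 33 °C, on the log2 scale. Among genes lower in Q111 cells after heat shock and not called at 33 °C, it was -3.98 for Sox2ot, -3.48 for Zfp386, -3.11 for Atg9b, -2.82 for Mmp11, -2.36 for Hoxc4, -2.33 for Dnajb5, -2.27 for Spred2, -1.99 for Smad3, -1.98 for Hoxc9 and for Mmp23, and -1.97 for Slc40a1. In the same group it was -1.75 for Efna4, -1.62 for Nr1d1, -1.55 for Cpt1a and for Ulk1, -1.48 for Sp1, -1.45 for Bcl2l11 and for Syvn1, -1.38 for Dnajb2, -1.19 for Ephb3 and -0.99 for Pxn. Genes lower at both temperatures and further apart after heat shock were Foxl2os at -2.42, Lhx2 at -2.36, Slc38a1 at -1.81, Artn at -1.38 and Meis2 at -1.27. Six5, higher in Q111 cells at 33 °C and lower after heat shock, had -3.24.

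Genes higher in Q111 cells at both temperatures and closer after heat shock were Fbn2 at -3.86, Lrrc17 at -3.37, Ifit1 at -2.56, Rspo3 at -2.45, Rsad2 at -1.93, Col1a2 at -1.73 and Cxcl1 at -0.81. Genes lower at both temperatures and closer after heat shock were Sorbs2 at 3.90, Tenm3 at 3.64, Cldn1 at 2.93, Arfgef3 at 2.83 and Tac1 at 1.75. Genes higher after heat shock and not called at 33 °C were Saa3 at 2.97, Eid3 at 2.77, Dcn at 2.35, Maff at 1.71, Tnfaip3 at 1.45, Bcl11b at 1.29 and Nsdhl at 1.06. Fgf7 and Adm, higher at both temperatures, were further apart after heat shock by 1.76 and 0.85. All arrays of 1 or more groups were in background range for Sox2ot, Efna4, Foxl2os, Lhx2, Artn, Lrrc17, Ifit1, Rspo3, Rsad2, Sorbs2, Tenm3, Cldn1, Arfgef3, Tac1 and Bcl11b, so their values are fitted against that range. Eid3 was at or near that range in both lines at 33 °C. Efna4 was not called after heat shock without Q7 replicate 1 and Q111 replicate 3 (adjusted p = 0.0577).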

How the results depend on the processing

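The count of genes that differed after heat shock, 4018, was 8938 with array weights (whose estimation stopped before convergence), 6422 for single probe sets, 6291 with median-centred arrays, 2674 with the heat-shock arrays alone, 2239 at an adjusted p under 0.01, and 2594 to 4152 with any 1 array left out. Higher genes numbered 3970 with array weights, 1819 for single probe sets, 4566 with median-centred arrays, 720 with the heat-shock arrays alone, 753 among brighter genes, 572 at the stricter threshold and 730 to 1393 with 1 array left out. Lower genes numbered 4968, 4603 and 1725 under the first 3 of these settings, 1638 without both named arrays, 1667 at the stricter threshold and 1841 to 2996 with 1 array left out. The count at 33 °C, 1962, was 1046 among brighter genes, 2986 for single probe sets and 1255 at the stricter threshold. Interaction calls, 1041, numbered 3406 with array weights, 407 with the actin 3' minus 5' signal as covariate, 224 at the stricter threshold and 379 to 1238 with 1 array left out. With the replicate block the counts were 4046 after heat shock, 1916 at 33 °C and 1110 for the interaction. The causes of these shifts were not tested. Of the 177 named genes called after heat shock, 123 kept their call and direction in every alternative run. Ern1 changed sign with the mean of its probe sets (0.062, not called). Of 1719 called genes with further probe sets above background range, 1065 had at least 1 that was not called and 29 had 1 called in the opposite direction.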
